A study of Homo sapiens with 6 samples.

Results

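The genes described here are 10 genes of cell-surface and matrix heparan sulfate proteoglycans: the syndecans SDC1, SDC2, SDC3 and SDC4, the glypicans GPC1, GPC2, GPC3, GPC4 and GPC6, and HSPG2, which encodes perlecan. They are 10 of the 58735 genes in the expression table and were found in it by symbol. They were chosen with their measured values in the same contrast in view, SDC1 and SDC4 because they differ in opposite directions, so their differences between the groups are given as a description with no test. Expression was measured by RNA-seq in HCT116SCs, which are CD44+CD326+ cells taken by magnetic sorting from the HCT116 human colorectal cancer line and grown as spheres in serum-free medium with EGF, bFGF and B27. Before transfection the spheres were digested to single cells and seeded in well plates. The NC group (n = 3) received a negative control siRNA and the siPSCA group (n = 3) an siRNA against PSCA, a GPI-anchored surface protein, both with the same liposomal reagent and both harvested 48 h after transfection. The comparison asks which transcripts differ when PSCA is targeted. Every library comes from 1 cell line, and no source used here says that the replicates were separate cultures or which of the listed PSCA siRNAs was used. Spreads and p-values therefore measure only the variation between these libraries, which may be technical.

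Heparan sulfate proteoglycans are core proteins that carry long, sulfated sugar chains. Syndecans span the plasma membrane and have a short cytoplasmic tail that binds adaptor proteins, whereas glypicans are held on the outer face of the membrane by a GPI anchor, and perlecan is secreted into basement membranes. Their chains hold heparin-binding growth factors such as FGFs, VEGF and midkine near their receptors. In the intestinal epithelium SDC1 is the main syndecan of the basolateral surface, while SDC4 is a component of focal adhesions in many adherent cells.

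The expressed syndecans are separate genes that share a conserved end, which is shown here because it is the stretch by which the family is recognised and because its bases differ between the genes that are compared. Each sequence is the last 33 coding bases, stop codon included, read from the GENCODE 29 transcripts on the minus strand of GRCh38, all within exon 5 of 5. The capitals mark the last 4 codons before the stop, which encode the binding motif for PDZ domains. SDC1 ends at chr2:20202766-20202798, SDC3 at chr1:30873211-30873243 and SDC4 at chr20:45327264-45327296.
SDC1: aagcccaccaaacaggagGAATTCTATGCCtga
SDC3: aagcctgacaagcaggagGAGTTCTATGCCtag
SDC4: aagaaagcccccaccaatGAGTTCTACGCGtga
The SDC1 and SDC3 ends had 26 of 33 bases in common, SDC1 and SDC4 18, and SDC3 and SDC4 17. Within the 12 capital bases, the same pairs had 11, 9 and 10 bases in common. The coding regions were 933 bases (310 codons without the stop) for SDC1, 1329 bases (442 codons) for SDC3 and 597 bases (198 codons) for SDC4. Of the 31-base words in their transcripts, SDC1 and SDC4 shared 0% with any other gene on the same strand and SDC3 shared 0.042%.

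The promoters of SDC1 and SDC4 are shown because these genes stood at opposite ends of the differences among the 10 genes. RefSeq sequences were matched for 8 of the 10 genes, without SDC2 and GPC3, and each window is the 250 bases before a transcription start in GRCh38.p14, printed in the direction of transcription. Capitals mark the GC box, GGGCGG on either strand. SDC4 has a start with the window chr20:45348425-45348674. SDC1 has starts with the windows chr2:20225131-20225380 and chr2:20225476-20225725, labelled a and b. All are on the minus strand.
SDC4: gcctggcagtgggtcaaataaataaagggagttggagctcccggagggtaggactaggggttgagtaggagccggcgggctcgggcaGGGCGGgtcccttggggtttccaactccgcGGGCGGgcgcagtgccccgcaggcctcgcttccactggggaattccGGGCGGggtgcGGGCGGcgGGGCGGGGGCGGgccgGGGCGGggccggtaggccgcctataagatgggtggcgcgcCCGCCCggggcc
SDC1 a: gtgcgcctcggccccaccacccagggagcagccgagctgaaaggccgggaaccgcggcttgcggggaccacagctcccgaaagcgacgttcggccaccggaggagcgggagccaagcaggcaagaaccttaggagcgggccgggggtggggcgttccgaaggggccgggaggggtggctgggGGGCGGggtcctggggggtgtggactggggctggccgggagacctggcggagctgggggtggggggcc
SDC1 b: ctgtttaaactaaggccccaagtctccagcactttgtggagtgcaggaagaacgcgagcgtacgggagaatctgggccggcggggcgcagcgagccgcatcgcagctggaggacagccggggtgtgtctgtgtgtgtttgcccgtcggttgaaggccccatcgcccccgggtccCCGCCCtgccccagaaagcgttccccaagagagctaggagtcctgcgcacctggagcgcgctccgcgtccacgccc
The SDC4 window held 8 GC boxes and 1 match to TATAA, at 73.6% GC. Each SDC1 window held 1 GC box and no TATAA, at 75.2% and 66.4% GC. Across 35116 RefSeq promoter windows of the same length, 42.6% held at least 1 GC box and 18.9% at least 1 TATAA on either strand, and the median GC content was 58.0%. The windows of HSPG2, SDC3, GPC1, GPC2 and GPC4 held 8, 5, 4, 3 and 2 GC boxes, and that of GPC6 held 0. The CCAAT box, found in 32.0% of all windows, had 2 matches in the GPC2 window and 0 in the SDC1 and SDC4 windows. The core hypoxia element ACGTG, found in 18.5% of all windows, had 1 match, in the GPC6 window, and the AP-1 site TGACTCA, found in 4.2%, had none in the 8 genes. A match of letters is a description and not a binding site.

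The values are FPKM, fragments per kilobase of exon scaled to library depth, from which whole reads could be recovered. Between 16099716 and 17302219 reads per library fell on genes, so that 1 read on a 1 kb gene equals an FPKM of 0.0549 to 0.0595. PSCA itself had 4, 12 and 15 reads in NC 1 to 3 against 9, 9 and 7 in siPSCA 1 to 3, a ratio of 0.784 (95% exact conditional interval from the summed reads 0.444 to 1.37, counting error only), so a lower PSCA transcript level was not detectable at this depth. The paper reports less PSCA protein on Western blots of HCT116SCs after each of its PSCA siRNAs, which is a different measure from the transcript level. NC 3 stood apart from the other NC libraries: its root-mean-square log2 distance to them was 0.410 and 0.390, against 0.268 between NC 1 and NC 2 and 0.254 to 0.268 among the siPSCA libraries. The log2 difference between the groups also increased with the GC content of the transcript, with a Spearman correlation of 0.664 across 13792 genes, which are not independent replicates. In NC 3 against the mean of NC 1 and NC 2 the same correlation was -0.561. The differences, shares, sums and order of levels of the 10 genes are therefore given also without NC 3 and with a smooth trend on GC content and length removed from every library, and the part of either in the results was not tested. Of the 10 epithelial markers listed, 8 were above the minimum of a mean FPKM of 1. In a limma fit over all genes above it, 2 of these passed an adjusted p of 0.05 as higher in siPSCA (KRT8 and CDX2). As lower, 3 passed (CDH1, PROM1 and CD44), and 3 did not pass (EPCAM, KRT18 and KRT20). Of all genes in that fit, 50.7% passed in either direction. With the GC and length trend removed, 1 marker was higher and 4 were lower, where 39.6% of all genes passed. The mean FPKM in NC and siPSCA was 107.1 and 95.0 for EPCAM, 178.3 and 207.7 for KRT8, 30.1 and 19.5 for CDH1 and 82.6 and 60.7 for CD44. VIL1 and LGR5 were under 0.1 in every library. The exons of VIL1 overlap USP37 on the other strand over 44.0% of their bases, and the part of this overlap in its low value was not tested. All 4 leukocyte markers were under the minimum, with PTPRC at most at 0.0454, CD3E and CD68 listed at 0, and a summed FPKM of at most 0.155 in NC and 0.109 in siPSCA. The exons of CD68 overlap another gene on the same strand over 81.7% of their bases, so its 0 may reflect how reads were assigned. The 3 endothelial markers were also under it, at a summed FPKM of 0.120 to 0.251 in NC and 0.215 to 0.232 in siPSCA. Of 4 fibroblast markers only COL1A1 was above the minimum, with mean FPKM of 4.71 and 6.16. In bulk RNA, fewer cells with a transcript and less of it per cell cannot be told apart.

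SDC4 was the most abundant of the 10 transcripts and was lower in every siPSCA library. Its FPKM was 68.3, 72.6 and 69.0 in NC 1 to 3 and 43.3, 37.6 and 38.8 in siPSCA 1 to 3. The groups did not overlap, and the 3 NC libraries lay close together. The means were 70.0 ± 2.32 and 39.9 ± 3.00 (SD, n = 3), a ratio of 0.571, and the difference in log2(FPKM + 1) was -0.80 with a standard error of 0.07. SDC4 encodes the syndecan that binds and activates protein kinase C alpha at focal adhesions. The gene lies at chr20:45325288-45348424 on the minus strand, overlaps no other gene's exons and had 1747 to 3304 reads per library. Its log2 difference was -0.81 without NC 3 and -0.86 with the GC and length trend removed, so that it was as large under both.

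SDC1 differed in the other direction. Its FPKM was 9.87, 9.73 and 6.18 in NC 1 to 3 and 21.6, 21.1 and 20.1 in siPSCA 1 to 3. Each siPSCA library was above 20 and each NC library under 10, with NC 3 the lowest. The means were 8.59 ± 2.09 and 21.0 ± 0.777, a ratio of 2.44, and the log2 difference was 1.22 with a standard error of 0.16. SDC1, also known as CD138, is the syndecan of epithelia and plasma cells. It lies at chr2:20200797-20225433 on the minus strand and had 383 to 1349 reads per library. Its log2 difference was 1.02 without NC 3, 0.75 (SE 0.07) with the GC and length trend removed and 0.66 with both, so the value fell by more than 1.5 times with the trend removed while its sign stayed.

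SDC3, best known from the nervous system, showed a smaller difference. Its FPKM was 16.6, 16.6 and 11.4 in NC and 20.3, 20.5 and 17.7 in siPSCA. The groups did not overlap, but the lowest siPSCA library was little above the highest NC libraries. The log2 difference was 0.39 with a standard error of 0.15. It was 0.22 without NC 3, 0.05 with the trend removed and -0.03 with both. SDC3 lies at chr1:30869467-30908761 on the minus strand. SDC2, on chromosome 8, had 0 reads in all 6 libraries, which allows an FPKM of at most 0.0363 to 0.0394 per library at 3 reads.

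**Figure D1:**
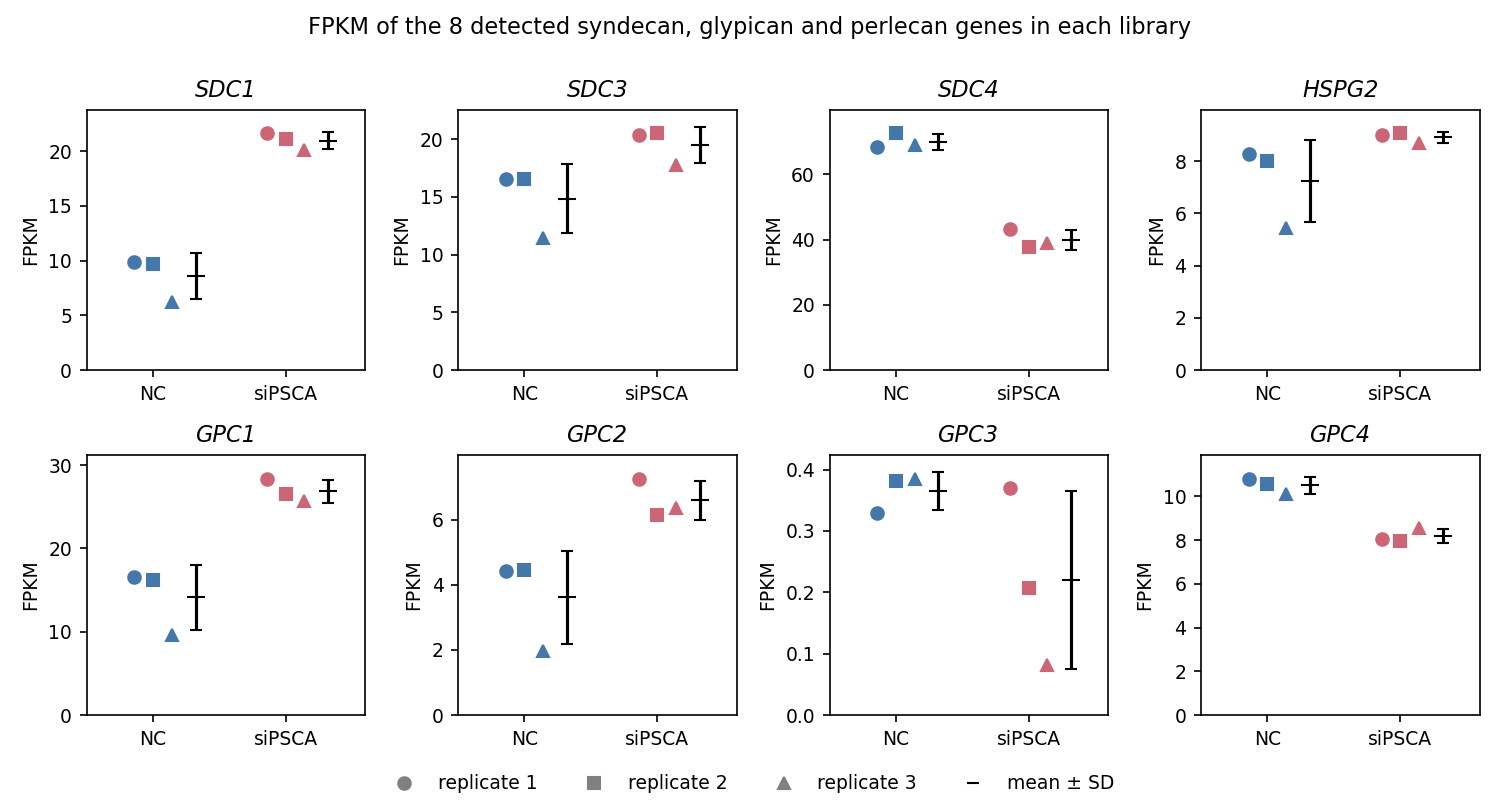
FPKM (vertical axes, from 0, each panel with its own scale) of the 8 genes with reads in the 3 NC (blue) and 3 siPSCA (red) libraries, with the marker shape giving the replicate and the black bars the mean ± SD. SDC4 lies between 68.3 and 72.6 in NC and between 37.6 and 43.3 in siPSCA, SDC1 lies under 10 in NC and above 20 in siPSCA, and NC 3 is the lowest library for SDC1, SDC3, HSPG2, GPC1 and GPC2.

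With SDC4 lower and SDC1 higher, the balance of syndecan transcripts differed between the groups. The ratio of SDC4 to SDC1 FPKM was 6.92, 7.46 and 11.2 in NC 1 to 3 and 2.00, 1.78 and 1.93 in siPSCA 1 to 3. The mean ratio was 8.51 ± 2.31 in NC and 1.91 ± 0.113 in siPSCA. As a difference of log2(FPKM + 1) values, SDC4 minus SDC1 changed by -2.02 between the groups, by -1.83 without NC 3 and by -1.61 with the GC and length trend removed. A ratio within a library does not depend on that library's total.

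Of the summed syndecan FPKM, SDC4 took 72.1%, 73.4% and 79.7% in NC and 50.8%, 47.5% and 50.6% in siPSCA. SDC1 took 10.4%, 9.84% and 7.14% in NC and 25.4%, 26.6% and 26.2% in siPSCA. SDC3 made up the rest, with a mean of 15.8% in NC and 24.3% in siPSCA. SDC4 thus remained the leading syndecan in each library, at a mean of 75.0% ± 4.06 in NC and 49.6% ± 1.87 in siPSCA. The summed syndecan FPKM was 94.7, 98.9 and 86.6 in NC and 85.3, 79.2 and 76.7 in siPSCA, with means of 93.4 ± 6.25 and 80.4 ± 4.42. The groups did not overlap in the sum, though the gap between NC 3 and siPSCA 1 was small against the spread within the groups. SDC1's share differed by 16.9 percentage points between the groups, by 16.0 without NC 3 and by 13.6 with the GC and length trend removed, and SDC4's by -25.4, -23.1 and -20.0. The summed syndecan FPKM differed by -13.0, by -16.4 without NC 3 and by -24.5 with the trend removed.

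**Figure D2:**
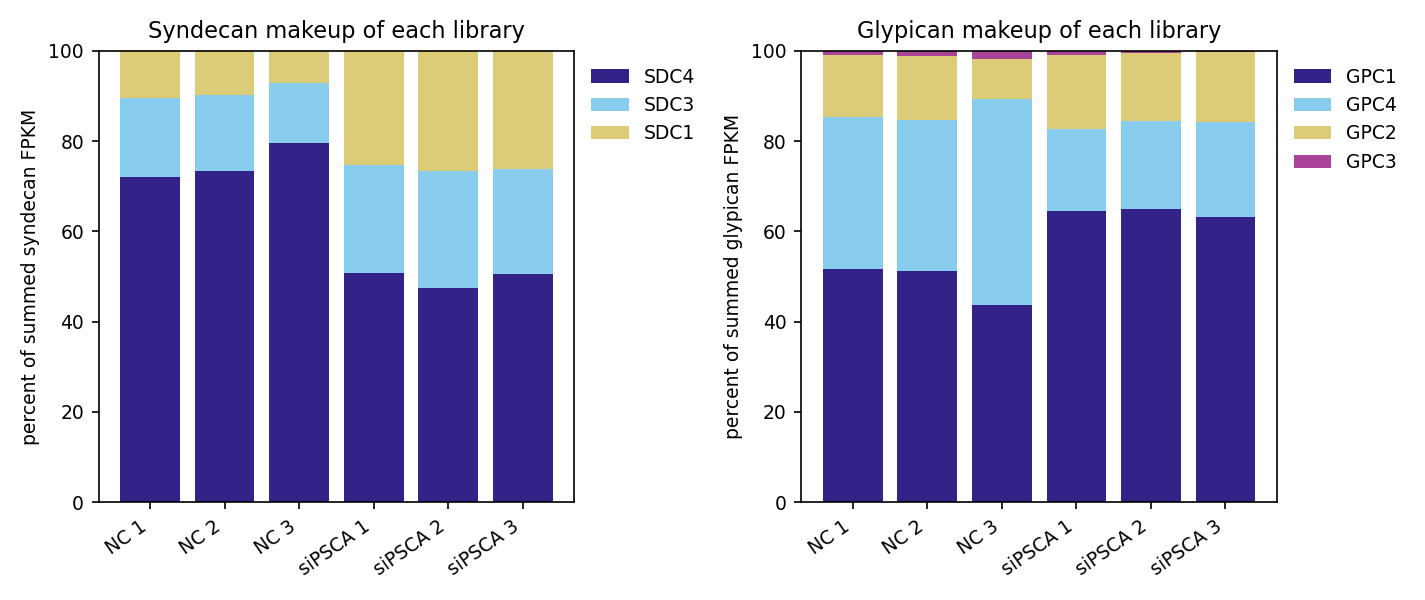
Stacked bars give the percent of the summed syndecan FPKM (left) and summed glypican FPKM (right) that each gene takes in each of the 6 libraries. SDC4 goes from a mean of 75.0% in NC to 49.6% in siPSCA while SDC1 goes from 9.13% to 26.1%, and GPC1 goes from 48.8% to 64.2% while GPC4 goes from 37.6% to 19.6%.

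The glypicans also differed in both directions. GPC1, the most abundant glypican here, had an FPKM of 16.6, 16.2 and 9.62 in NC 1 to 3 and 28.4, 26.5 and 25.7 in siPSCA 1 to 3. Its groups did not overlap, and NC 3 was far under the other NC libraries. The means were 14.1 ± 3.91 and 26.9 ± 1.37, a ratio of 1.90, and the log2 difference was 0.92 with a standard error of 0.20. GPC1 lies at chr2:240435671-240468078 on the plus strand and, at 66.7%, had the most GC-rich transcript of the 10. Its log2 difference was 0.68 without NC 3, 0.21 (SE 0.05) with the GC and length trend removed and 0.17 with both, so the value fell by more than 1.5 times with the trend removed and kept its sign.

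GPC4, a glypican first described in kidney, was the glypican that was lower. Its FPKM was 10.8, 10.6 and 10.1 in NC and 8.04, 7.96 and 8.55 in siPSCA, with all NC libraries above all siPSCA libraries. The log2 difference was -0.32 with a standard error of 0.05, and it was -0.35 without NC 3 and -0.23 with the trend removed. Its gene, at chrX:133300103-133415490 on the minus strand, has a neighbour of the same family, GPC3, at chrX:133535745-133985895. GPC3, an oncofetal glypican of liver tumours, had only 15, 18 and 18 reads in NC and 17, 10 and 4 in siPSCA. Its FPKM was 0.329, 0.381 and 0.385 in NC and 0.371, 0.208 and 0.0810 in siPSCA, under the minimum, and the groups overlapped. The ratio of summed reads was 0.591, and siPSCA 3 was the lowest library. In a fit over every gene with a read, the log2 difference of GPC3 was -0.17 with a standard error of 0.10.

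GPC2, a glypican of the developing nervous system, had an FPKM of 4.42, 4.46 and 1.97 in NC and 7.26, 6.14 and 6.35 in siPSCA. The log2 difference was 0.77 with a standard error of 0.24, and NC 3 was again the lowest library. It was 0.48 without NC 3 and 0.25 (SE 0.14) with the trend removed. GPC2 lies at chr7:100169606-100177372 on the minus strand and had 130 to 470 reads per library. GPC6, at chr13:93226842-94407401, had 0 reads in all 6 libraries, which allows an FPKM of at most 0.0255 to 0.0276 per library at 3 reads.

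HSPG2 encodes perlecan, a large basement membrane proteoglycan. Its FPKM was 8.28, 7.99 and 5.42 in NC and 9.02, 9.07 and 8.68 in siPSCA. The log2 difference was 0.29 with a standard error of 0.14. It was 0.12 without NC 3 and turned to -0.20 (SE 0.04) with the GC and length trend removed, so its sign differed between the settings. HSPG2 lies at chr1:21822245-21937297 on the minus strand, and 11.7% of its exonic bases overlap LDLRAD2 on the other strand. Whether reads were counted by strand is not given in the sources used here, so reads of both genes cannot be told apart there.

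Within the glypicans, GPC1 took 51.6%, 51.3% and 43.6% of the summed FPKM in NC and 64.4%, 64.9% and 63.2% in siPSCA. GPC4 took 33.7%, 33.4% and 45.7% in NC and 18.3%, 19.5% and 21.0% in siPSCA. The NC shares were close in NC 1 and NC 2 and displaced in NC 3 for both genes. The summed glypican FPKM was 32.1, 31.7 and 22.1 in NC and 44.1, 40.8 and 40.7 in siPSCA, with means of 28.6 ± 5.67 and 41.9 ± 1.91. GPC1's share differed by 15.4 percentage points, by 12.8 without NC 3 and by 5.28 with the GC and length trend removed. The share of GPC4 differed by -18.0, -14.0 and -6.49 percentage points in the same order, and the summed glypican FPKM by 13.2, 9.97 and 2.01. These glypican values were thus over 1.5 times smaller with the trend removed, where the sums were 32.8 ± 2.46 in NC and 34.8 ± 0.984 in siPSCA, a difference within the spread between replicates. Over all 10 genes the summed FPKM was 129.3 ± 13.2 in NC and 131.2 ± 6.40 in siPSCA, also within that spread. Without NC 3 the NC mean of this sum was 136.8, and with the trend removed the means were 139.8 ± 6.89 and 116.1 ± 3.68, so the sign of the difference turned under both.

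In order of level per length in NC, SDC4 came first, followed by SDC3, GPC1, GPC4, SDC1, HSPG2, GPC2 and GPC3. SDC3 and GPC1 overlapped in range, as did GPC1 and GPC4, and SDC1 and HSPG2. In siPSCA the order was SDC4, GPC1, SDC1, SDC3, HSPG2, GPC4, GPC2 and GPC3, and only SDC1 and SDC3 overlapped. SDC1 was therefore the fifth in the NC order and the third in siPSCA, while GPC4 went from the fourth place to the sixth. Leaving out NC 3 did not alter the order in NC. With the GC and length trend removed, GPC1 came before SDC3 and SDC1 before GPC4 in NC, and GPC4 came before HSPG2 in siPSCA. GPC4 then held the same place in both groups, and the shift of SDC1 was smaller.

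Of the 10 genes, 7 passed the minimum of a mean FPKM of 1, and GPC3, SDC2 and GPC6 did not. The NC and siPSCA values did not overlap in any of the 7, against 64.5% of the 13796 genes above the minimum. Because the genes were selected on this contrast, nothing is read from this count, and no threshold is applied to them. The median log2 difference of the 7 was 0.39 and 0.05 with the trend removed, against 0.01 and 0.02 over all genes above the minimum.

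**Figure D3:**
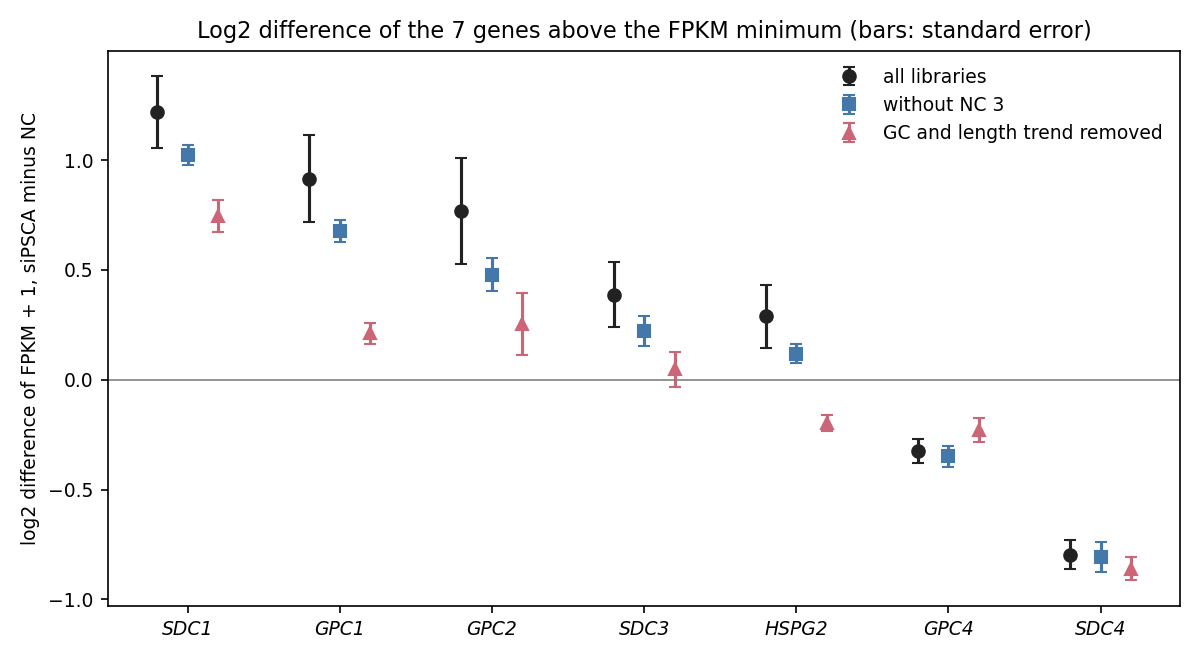
Difference in log2(FPKM + 1), siPSCA minus NC, of the 7 genes above the minimum (horizontal axis), with all libraries (black), without NC 3 (blue) and with the GC and length trend removed (red), where bars are standard errors. SDC4 stays between -0.80 and -0.86 and SDC1 between 1.22 and 0.75, whereas GPC1 goes from 0.92 to 0.21 and HSPG2 from 0.29 to -0.20.

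The 5 genes with positive differences had GC contents of 58.7% (SDC3), 60.1% (SDC1), 61.2% (GPC2), 64.5% (HSPG2) and 66.7% (GPC1). Those with negative differences had 44.8% (GPC4) and 48.8% (SDC4). Over all genes tested the median GC content was 48.1%, with 57.5% among those that passed as higher and 41.2% among those that passed as lower. SDC4 thus lay near the median GC content of the genes tested, and SDC1 above the median of those that passed as higher.

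**Figure D4:**
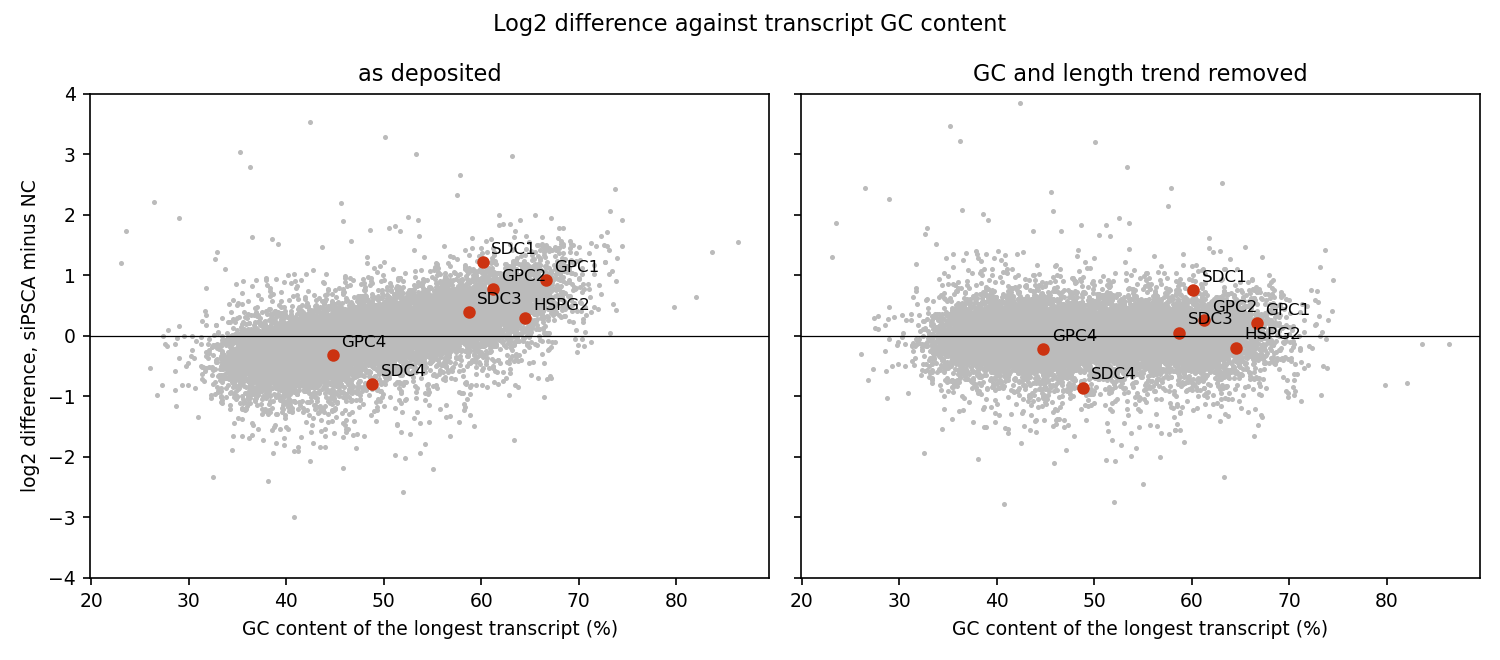
Log2 difference, siPSCA minus NC, against the GC content (%) of the longest transcript for every gene tested (grey) and the 7 named genes (red), as deposited (left) and with the GC and length trend removed (right). The grey cloud rises with GC content on the left (Spearman correlation 0.664) and is level on the right, where SDC1 and SDC4 remain at 0.75 and -0.86.

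Among 11078 protein-coding genes tested, the 3 whose log2(FPKM + 1) followed SDC1 most closely over the 6 libraries were CHPF, which encodes a chondroitin polymerising factor, MXD4, a MAX-binding repressor, and ARHGDIA. Their Pearson correlations with SDC1 were 0.9998, 0.9997 and 0.9997, and their log2 differences were 1.41, 1.01 and 1.17. For SDC4 they were C18orf25, RPL31, a ribosomal protein gene, and WLS, which encodes the carrier of Wnt proteins to the cell surface. Their correlations with SDC4 were 0.9993, 0.9981 and 0.9981, and their log2 differences were -0.50, -0.39 and -0.50. The GC contents were 67.6%, 57.6% and 64.7% for the 3 genes closest to SDC1, in the order named. They were 41.4%, 46.8% and 47.7% for those closest to SDC4. The GC and length trend was not removed for these correlations, and its part in them was not tested. All of these points share the same 6 libraries in 2 groups, and the correlations are a description with no test.

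The chains on all these core proteins are made by a shared set of enzymes, and 75 genes in 9 lists of the heparan sulfate pathway passed the minimum. In a limma fit over all 13796 genes above the minimum, 50.7% passed a Benjamini-Hochberg adjusted p of 0.05. The siPSCA level was the higher one in 26.6% of all genes and the lower one in 24.2%. After removal of the GC and length trend, 39.6% of 13792 genes passed. Of the 75 pathway genes, 49 passed in either direction, and 34 passed with the GC and length trend removed. The lists were drawn up from general knowledge with earlier results of these data known, and each count is set beside those shares of all genes tested. The p-values are limma's, adjusted over all 13796 genes.

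The linker that joins a chain to its core protein is built by a short series of enzymes. Of 6 such genes tested of 7 listed, 4 were higher, 1 was lower and 1 did not pass, with a median log2 difference of 0.46. B3GAT3, which adds the last sugar of the linker, rose by 0.74 (SE 0.20, adjusted p = 0.022). B4GALT7 and B3GALT6, which add its galactoses, rose by 0.54 (SE 0.10, adjusted p = 0.0063) and 0.53 (SE 0.14, adjusted p = 0.019). FAM20B, the kinase that phosphorylates the linker's xylose, fell by 0.52 (SE 0.09, adjusted p = 0.0054). With the GC and length trend removed, none of the 4 higher genes passed and the median was -0.01, while FAM20B still passed at -0.37 (adjusted p = 0.0068).

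Chain polymerisation and sulfation genes moved in both directions. Of 10 tested of 21 listed, 4 were higher, 3 were lower and 3 did not pass, with a median of 0.10 that was 0.16 with the trend removed. HS6ST1, a 6-O-sulfotransferase, had FPKM of 10.8, 10.3 and 7.83 in NC and 16.7, 15.3 and 16.4 in siPSCA, and rose by 0.70 (SE 0.12, adjusted p = 0.0047). EXTL3, which starts the chain, and HS3ST1, a 3-O-sulfotransferase, rose by 0.36 (SE 0.06, adjusted p = 0.0048) and 0.35 (SE 0.05, adjusted p = 0.0038). GLCE, the epimerase that turns glucuronic into iduronic acid, fell by 0.50 (SE 0.09, adjusted p = 0.0056). All 4 of these passed in the same direction with the trend removed, at 0.22, 0.44, 0.40 and -0.18 in the order named.

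The genes that supply nucleotide sugars and sulfate were likewise split. Of 12 tested of 12 listed, 3 were higher, 4 were lower and 5 did not pass, and the median of -0.14 turned to 0.14 with the trend removed. SLC35A2, the UDP-galactose transporter of the Golgi, rose by 0.71 (SE 0.12, adjusted p = 0.0047). SLC35B2, which carries the sulfate donor PAPS into the Golgi, rose by 0.58 (SE 0.10, adjusted p = 0.0049). PAPSS2, a PAPS synthase, fell by 0.39 (SE 0.07, adjusted p = 0.0053), and SLC35D2, a nucleotide sugar transporter, by 0.37 (SE 0.06, adjusted p = 0.0051). Each of these passed in the same direction with the trend removed. An exonic stretch of 46.8% of SLC35D2 overlaps another gene on the same strand, so its value is uncertain.

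Among genes for remodelling and lysosomal degradation of heparan sulfate, 6 were higher, 1 was lower and 3 did not pass, of 10 tested of 12 listed, with a median of 0.28. With the trend removed 3 were higher and 1 was lower, with a median of 0.11, and at a minimum FPKM of 5 the median was 0.089. IDUA, the lysosomal iduronidase, rose by 1.04 (SE 0.22, adjusted p = 0.0099). NAGLU, an N-acetylglucosaminidase, rose by 0.92 (SE 0.18, adjusted p = 0.0083), and SGSH, a sulfamidase, by 0.70 (SE 0.16, adjusted p = 0.014). IDS, the iduronate sulfatase, had FPKM of 11.6, 11.8 and 14.1 in NC and 6.53, 6.90 and 7.03 in siPSCA, and fell by 0.78 (SE 0.08, adjusted p = 0.0014). With the trend removed, IDUA no longer passed, at 0.15, whereas NAGLU, SGSH and IDS were at 0.26, 0.31 and -0.57 and passed. The exons of IDUA, NAGLU and IDS overlap other genes over 13.4%, 12.6% and 16.5% of their bases. HPSE, the heparanase that cuts the chains, was named after its value was seen: it rose by 0.44 and by 0.57 with the trend removed.

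Of the proteases and lipases that shed syndecans or release glypicans, 2 were higher, 2 were lower and 3 did not pass, of 7 tested of 12 listed, with a median of -0.17 that was -0.07 with the trend removed. MMP15 and MMP14, membrane-type matrix metalloproteases, rose by 1.06 (SE 0.19, adjusted p = 0.0059) and 0.47 (SE 0.13, adjusted p = 0.027). ADAM10 and ADAM17, membrane-bound sheddases, fell by 0.50 (SE 0.06, adjusted p = 0.0018) and 0.45 (SE 0.07, adjusted p = 0.0037). With the trend removed only MMP15 of these 4 passed, at 0.35, and ADAM10, ADAM17 and MMP14 were at -0.07, -0.08 and 0.07. ADAM17 shares 12.3% of its exonic bases with a gene on the other strand. NOTUM, an extracellular enzyme that removes a lipid from Wnt proteins, was listed for a proposed action on glypicans that was not examined here. It was named after its value was seen. Its log2 difference was -0.45, which did not pass, and -1.21 with the trend removed, which did.

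The cytoplasmic partners of the syndecan tail held 3 higher, 4 lower and 3 that did not pass, of 10 tested of 11 listed, with a median of -0.09 that turned to 0.05 with the trend removed. GIPC1, a PDZ protein that binds the motif in capitals above in SDC4, rose by 0.92 (SE 0.19, adjusted p = 0.010), and SRC, a tyrosine kinase, by 0.74 (SE 0.14, adjusted p = 0.0079). PRKCA, the protein kinase C alpha that SDC4 activates, had FPKM of 5.08, 4.94 and 5.25 in NC and 3.23, 3.52 and 3.35 in siPSCA, and fell by 0.48 (SE 0.06, adjusted p = 0.0018). PDCD6IP, the ALIX protein that joins syndecans and syntenin in exosome formation, fell by 0.47 (SE 0.07, adjusted p = 0.0032). Each of the 4 passed in the same direction with the trend removed, at 0.25, 0.37, -0.40 and -0.14.

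Other carriers of heparan sulfate held 2 higher, 1 lower and 2 that did not pass, of 5 tested of 9 listed. The median was -0.03, and it was 0.04 without NC 3, 0.16 with the trend removed and 0.95 at a minimum FPKM of 5. The last of these medians is the value of AGRN, the middle gene of those left. COL18A1, a basement membrane collagen, and AGRN, agrin, rose by 1.03 (SE 0.30, adjusted p = 0.030) and 0.95 (SE 0.27, adjusted p = 0.028), and neither passed with the trend removed, at 0.33 and 0.26. COL18A1 shares 16.4% of its exonic bases with a gene on the other strand. CD44, a hyaluronan receptor with variants that carry heparan sulfate and a marker by which the cells were sorted, had FPKM of 81.1, 79.2 and 87.5 in NC and 59.6, 60.1 and 62.4 in siPSCA. It fell by 0.44 (SE 0.05, adjusted p = 0.0019) and was at -0.29 with the trend removed, where it still passed.

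Without NC 3, 30 of the 75 pathway genes were higher and 21 were lower. Over all 13796 genes in the same setting, 4014 were higher and 3411 were lower. Each pathway gene given above with an adjusted p passed in the same direction. FGFR2, an FGF receptor in the lists, was lower with all libraries and did not pass without NC 3. COL18A1 and AGRN were then at 0.66 and 0.62. With siPSCA 1, siPSCA 2 or siPSCA 3 omitted, B3GAT3, MMP14, COL18A1 and AGRN no longer passed, and B3GALT6 and SGSH did not pass without siPSCA 1 or without siPSCA 2. These were higher genes with FPKM lowest in NC 3. The lower genes FAM20B, GLCE, PAPSS2, SLC35D2, IDS, ADAM10, ADAM17, PRKCA, PDCD6IP and CD44 passed with each library left out in turn.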

How the data were processed

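RNA from 3 NC and 3 siPSCA libraries of HCT116SCs had been prepared with the NEBNext Ultra RNA kit. The authors deposited 1 table of FPKM per gene on GRCh38, and the aligner, counter, strand setting and test are not given in the sources used here. The titles of siPSCA 2 and 3 read HCT117 and HCT118, whereas their other labels match siPSCA 1, and the libraries were kept. Whole reads were recovered from the FPKM steps (100% of values whole within 0.01), with 16099716 to 17302219 reads on genes. Intervals and floors of 3 reads cover counting error only.

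Genes averaging 1 FPKM or more were fitted on log2(FPKM + 1) with limma 3.58.1 in R 4.3.3 (mean-variance trend, two-sided, Benjamini-Hochberg over 13796 genes, threshold 0.05). A fold change on this scale understates that of low genes. GC and length trends were removed with splines of 5 degrees of freedom. Loci, overlaps and coding ends came from GENCODE 29, of which 58724 gene entries matched the table by identifier, start and end, and promoters from RefSeq. Motifs were searched on both strands. Alternatives were a pseudocount of 0.1, a minimum of 5 or none, TPM, median-of-ratios scaling, limma-voom on the recovered reads, the replicate block and leaving out each library. The 10 genes and all lists were chosen with earlier results of these data known. Named were the 10 genes, PSCA, cell type markers, up to 4 genes per list with the largest differences past the threshold, and the 3 genes most correlated with SDC1 and with SDC4. HPSE and NOTUM were named outside this rule, after their values were seen.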

Additional observations from a re-analysis of the deposited data

How the results depend on the processing

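With the GC and length trend removed, the change in log2 ratio of SDC4 to SDC1 was -1.61, the change in SDC1's share of syndecan FPKM 13.6 percentage points and in SDC4's -20.0, against -2.02, 16.9 and -25.4 as reported. With NC 3 also left out, an alternative chosen after seeing the data, they were -1.54, 13.2 and -19.1. HSPG2 reversed under both, to -0.20 each, and SDC3 to -0.031 under the second. List medians reversed under the first and second to -0.012 and -0.031 (linker synthesis), 0.14 and 0.16 (precursor supply), -0.056 and -0.11 (FGF receptors), 0.051 and 0.079 (cytoplasmic partners), 0.16 and 0.13 (other carriers) and -0.19 and -0.19 (heparin-binding ligands). At a minimum FPKM of 5 the medians of shedding, other carriers, ligands and cytoplasmic partners turned to 0.069, 0.95, -0.27 and 0.00085. Glypican shares, sums and the order of levels were recomputed by a choice made after seeing the data. The difference in summed FPKM of the 10 genes, 1.93, turned to -23.7 and -27.5 under the first and second, and ranged from -5.65 (without NC 3) to 6.57 with 1 library left out, at -1.66 without siPSCA 1. Without NC 3 the median of other carriers was 0.038. The cause of these changes was not tested. Leaving out 1 library at a time gave 4627 to 7425 genes past the threshold, the fewest without siPSCA 1, and 33 to 51 list genes. It gave a log2 ratio change of -2.13 to -1.83 and share changes of 16.0 to 17.6 and -26.9 to -23.1 points, with SDC1 at 1.02 to 1.32 and SDC4 at -0.85 to -0.76. Over every alternative run SDC1 stayed between 0.66 and 1.34 and SDC4 between -0.88 and -0.76. Replicate numbers showed no clear pairing of the samples, though 3 libraries per group cannot exclude one. Deviations of same-numbered libraries correlated at 0.10, 0.01 and 0.13. NC 1 and NC 3 correlated best with their own number, and NC 2 did not. With the replicate block, 6725 genes passed, with 45 list genes. The split of higher against lower calls moved by under 10 percentage points under each scaling. Levels near 0, as for GPC3, SDC2 and GPC6, were limited by depth.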

Other observations

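The ligands that heparan sulfate chains hold, and the receptors of FGFs, were examined as well. Of 17 heparin-binding ligands listed, 10 were tested: 3 were higher, 4 were lower and 3 did not pass, with a median log2 difference of 0.05 that was -0.19 with the GC and length trend removed. PDGFA, a platelet-derived growth factor chain, had FPKM of 9.22, 11.7 and 11.1 in NC and 2.73, 2.75 and 2.78 in siPSCA. It fell by 1.63 (SE 0.09, limma adjusted p = 0.00028) and was at -1.81 with the trend removed. VEGFA, the vascular growth factor, had FPKM of 11.1, 11.5 and 9.57 in NC and 4.18, 4.30 and 4.36 in siPSCA. It fell by 1.15 (SE 0.08, adjusted p = 0.00043) and was at -1.25 with the trend removed. For both, every siPSCA library was under every NC library, and the value without NC 3 was -1.60 and -1.22.

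BMP4, a bone morphogenetic protein, had FPKM of 74.8, 75.3 and 67.1 in NC and 144.0, 141.0 and 132.8 in siPSCA. It rose by 0.94 (SE 0.06, adjusted p = 0.00048) and by 0.70 with the trend removed. MDK, midkine, rose by 0.58 (SE 0.07, adjusted p = 0.0018), but was at 0.06 with the trend removed and did not pass. Of 6 FGF receptor genes listed, 5 were tested, 1 was higher, 1 was lower and 3 did not pass. FGFRL1, a receptor without a kinase domain, rose by 0.73 (SE 0.13, adjusted p = 0.0055) and did not pass at 0.12 with the trend removed, and FGFR2 fell by 0.26 (SE 0.09, adjusted p = 0.046) and still passed at -0.25. FGFR2 did not pass when NC 2, NC 3 or any siPSCA library was left out, with -0.18 without NC 3.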
